A study of Mus musculus with 4 samples.

Results

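Activin A and TGF-β signaling was read from 10 genes of cultured mouse peritoneal macrophages: the ligands Inhba and Tgfb1, the receptors Tgfbr1, Acvr1, Tgfbr2 and Acvr2a, the intracellular mediators and inhibitors Smad3, Smad7 and Skil, and the target gene Tgfbi. A member is a row of the count table whose gene name is one of these symbols, and the 10 rows are among 54532 genes listed. The symbols were chosen by their reads in these same libraries, so their values are given as a description and were not tested. All 10 passed the minimum of 10 reads in at least 1 library, as did 13715 genes in all.

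The libraries were made from total RNA of thioglycollate-elicited macrophages, taken from the peritoneal fluid of wild-type BALB/c mice. They fill a design of 2 media by 2 treatments: DMSO or CH223191 in normal medium, and DMSO or CH223191 in 4T1-CM. 4T1-CM is medium conditioned by 4T1 cells, a mouse mammary carcinoma line, and was used at 30%. CH223191, used at 10 µM, is a small-molecule antagonist of the aryl hydrocarbon receptor (AHR), a ligand-activated transcription factor, and DMSO is its vehicle. Cells were given the compound ahead of the conditioned medium and kept in it, per the study's methods for macrophage cultures. The methods give an age of 8 to 10 weeks for the study's wild-type BALB/c mice in general, and the number of mice and duration of culture behind these libraries are not given in the sources used here. Conditioned medium carries whatever the tumour cells secrete, and an effect of 1 tumour factor cannot be told apart from that of the rest.

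Each condition had 1 library, so no spread between replicates was available. Each log2 ratio below is of TMM-scaled reads (TMM being a scaling that sets libraries of different composition side by side). The 95% interval behind a ratio covers counting error between those libraries only, not the conditions. A gene was called changed at 2-fold or more, and where a library held 3 reads or fewer of a gene, its reads are given without a fold. The libraries held between 15535405 and 17557127 counted reads. All 8 macrophage markers were detected in every library, and their summed level went from 14303 and 18500 CPM (reads scaled to a common library size) in normal medium to 40651 and 43449 CPM in 4T1-CM. Most of this sum was Lyz2, at 11888 and 15185 CPM in normal medium and 32957 and 35572 CPM in 4T1-CM (DMSO, then CH223191). Of the 8, 5 were at least 2-fold higher in 4T1-CM with DMSO and 4 with CH223191, against 12.2% and 12.0% of all genes. In bulk RNA, fewer cells of a type and less RNA per cell cannot be told apart.

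Activin A is a dimer of the inhibin βA chain encoded by Inhba, and TGF-β1 is encoded by Tgfb1. Either ligand brings a type II receptor (Acvr2a or Acvr2b for activin, Tgfbr2 for TGF-β) together with a type I receptor (Acvr1b for activin, Tgfbr1 for TGF-β), which phosphorylates SMAD2 and SMAD3. These enter the nucleus with SMAD4, and the pathway is limited by feedback inhibitors such as SMAD7 and the corepressor SnoN. Macrophages are a known source of both ligands and respond to both.

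Inhba and Tgfbi, the members that differed most between the media, lie on chromosome 13, and the sequence just before each annotated gene start is printed because both went from low levels to among the highest of the transcriptome. It was read from the RefSeq promoter table of GRCm38.p6, which represents the C57BL/6 strain and not BALB/c. Inhba occupies chr13:16011851-16031621 and Tgfbi chr13:56609523-56639562, both on the plus strand. The windows are chr13:16011601-16011850 (250 bases) and chr13:56609336-56609522 (187 bases), each ending at the base before the annotated gene start. The RefSeq start of Tgfbi lies inside the first annotated exon, and its window was therefore shortened. On the same build, the deposited table places Tgfb1 at chr7:25687002-25705077 and Skil at chr3:31095058-31122577 on the plus strand, and Smad3 at chr9:63646767-63757994 on the minus strand. The receptors lie at chr4:47353222-47414931 (Tgfbr1, plus), chr2:58388644-58567157 (Acvr1, minus), chr9:116084293-116175360 (Tgfbr2, minus) and chr2:48814109-48903269 (Acvr2a, plus). Capitals mark the core of the AHR response element (GCGTG, or CACGC on the other strand) and the SMAD-binding element (CAGAC, or GTCTG on the other strand).
Inhba: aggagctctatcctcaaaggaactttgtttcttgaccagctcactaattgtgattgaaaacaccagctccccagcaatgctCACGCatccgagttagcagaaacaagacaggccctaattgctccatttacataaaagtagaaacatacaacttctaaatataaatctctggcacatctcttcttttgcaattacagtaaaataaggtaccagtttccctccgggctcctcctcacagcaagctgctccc
Tgfbi: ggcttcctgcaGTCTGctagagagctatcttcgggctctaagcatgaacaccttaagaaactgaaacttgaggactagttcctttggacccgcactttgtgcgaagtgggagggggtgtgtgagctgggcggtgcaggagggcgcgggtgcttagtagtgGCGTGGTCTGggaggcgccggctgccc

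The Inhba window held 1 AHR core, from 169 to 165 bases before the gene start, and no CAGAC. The Tgfbi window held 1 AHR core, from 27 to 23 bases before the start, directly followed by 1 of its 2 SMAD elements, from 22 to 18 bases before it. Neither window held the AP-1 letters TGANTCA or the STAT5 letters TTCNNNGAA. RefSeq gave a promoter for 8 of the 10 members (Smad7 and Skil were unmatched). Over 250 bases the AHR core was found in at least 1 window of 8 of the 8 and the SMAD element in 4. Tgfbr1 had 2 windows. The window with its start site at 47353222 held 2 AHR cores and no SMAD element, and that at 47386216 no AHR core and 1 SMAD element. The shares that follow count windows and not genes. Of 32851 promoter windows of that length, 28.2% held the AHR core, 42.2% the SMAD element, 6.75% the AP-1 letters and 7.02% the STAT5 letters. Among the 12546 windows of genes that passed the minimum, 44.1% held the AHR core. The core contains CpG, and the windows of the members ran from 43.2% to 85.6% G and C, against a median of 59.6% for those 12546. These matches describe letters and not binding.

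The ligands moved in opposite directions with 4T1-CM. In normal medium, Inhba had 22 reads with DMSO and 31 with CH223191. In 4T1-CM it had 14254 reads with DMSO and 11616 with CH223191. The respective levels were 1.38, 1.95, 814 and 715 CPM, so that both libraries in 4T1-CM were far above both in normal medium. With DMSO, Inhba was 577-fold higher in 4T1-CM, a log2 ratio of 9.17 (95% interval 8.61 to 9.88). With CH223191 it was 361-fold higher, a log2 ratio of 8.50 (8.01 to 9.08). Among the 8323 genes that averaged 10 CPM or more, these rises ranked 5 and 4. The folds rest on few reads in normal medium, which is what widens their intervals.

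Tgfb1 was abundant throughout, with 5535 and 4911 reads in normal medium (DMSO, then CH223191) and 4293 and 4059 in 4T1-CM. Both libraries in 4T1-CM lay below both in normal medium. The log2 ratio was -0.50 (-0.56 to -0.44) with DMSO and -0.31 (-0.37 to -0.25) with CH223191, short of 2-fold. On a scale of CPM per kilobase of the deposited gene length, the order of the ligands turned over. That length is 5042 bases for Tgfb1, whose 1 annotated coding transcript has 2175, whereas both lengths are 6390 for Inhba. The shorter length would raise the Tgfb1 level per kilobase, and the order in 4T1-CM was not computed with it. In normal medium the Tgfb1 level was 68.9 and 61.2 CPM per kilobase, against 0.216 and 0.305 for Inhba. In 4T1-CM the Inhba level was 127 and 112 on the same scale, against 48.6 and 49.6 for Tgfb1. Inhba went from rank 12320 and 12004 of 13715 genes to rank 323 and 363, whereas Tgfb1 stayed between rank 658 and 866.

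**Figure D1:**
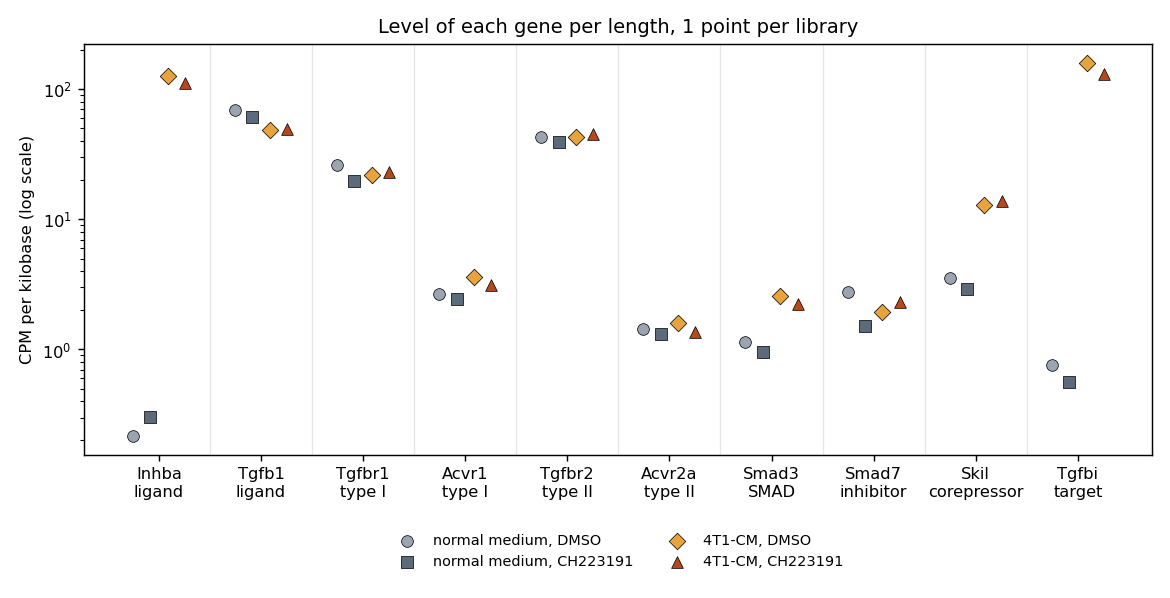
Level of each of the 10 genes in CPM per kilobase (log axis), with 1 point for each library and no error bars because each condition had 1 library. Inhba and Tgfbi lie below 1 in both libraries in normal medium and above 100 in both libraries in 4T1-CM, whereas the 4 points of each receptor lie close together.

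The 4 receptor genes stayed well within 2-fold in every comparison. Tgfbr2, the type II receptor that binds TGF-β, had 5628, 5131, 6145 and 6063 reads, listed first for normal medium (DMSO, CH223191) and then for 4T1-CM (DMSO, CH223191), an order kept for all values below. Its log2 ratio under 4T1-CM was -0.01 (-0.06 to 0.04) with DMSO and 0.21 (0.16 to 0.26) with CH223191. Tgfbr1, its type I partner, had 2723, 2052, 2500 and 2449 reads. The library in normal medium with CH223191 was the lowest for both genes. For Tgfbr1 the ratio was -0.26 (-0.34 to -0.18) with DMSO and 0.22 (0.14 to 0.31) with CH223191, opposite in sign. With the trend on gene length removed, the values with CH223191 came to 0.12 for Tgfbr1 and 0.03 for Tgfbr2.

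Acvr1, a type I receptor mainly of bone morphogenetic proteins (BMPs), had 205, 189, 305 and 246 reads, and both libraries in 4T1-CM were above both in normal medium. Its log2 ratio was 0.44 (0.18 to 0.70) with DMSO and 0.35 (0.07 to 0.63) with CH223191. Acvr2a, a type II receptor for activin, had 131, 120, 158 and 127 reads, so the libraries of the media overlapped. Its log2 ratios of 0.13 (-0.21 to 0.48) and 0.05 (-0.32 to 0.42) included 0. Acvr2a shares 446 exonic bases with Orc4 on the opposite strand. The sources do not state if read strand entered the counting, and part of its low count may belong to Orc4, which had 257 to 412 reads.

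Per length, the receptors for TGF-β were more abundant than those for activin. Tgfbr2 stood at 39.4 to 45.6 CPM per kilobase and Tgfbr1 at 19.7 to 26.1. Acvrl1, a type I receptor known best from endothelium and no member here, went from 17.3 and 21.8 in normal medium to 32.7 and 33.5 in 4T1-CM, above Tgfbr1 in 3 of the 4 libraries. Acvr1b, the type I receptor of activin, had 10.1, 9.86, 16.3 and 20.3, Acvr1 had 2.46 to 3.61, Acvr2a 1.33 to 1.59 and Acvr2b 0.480 to 0.768. The Tgfbr2 level was 27.0 to 33.2 times the Acvr2a level. Acvr1 and Acvr2a kept their order in every library. Acvr1c, a further activin-class type I receptor, had 0 reads in every library.

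Among the intracellular members, Skil and Smad3 passed 2-fold in 4T1-CM in both pairs of libraries and Smad7 in neither. Skil encodes SnoN, a corepressor that binds SMADs and is itself induced by the pathway. It had 552, 453, 2203 and 2194 reads, with no overlap between the media. Its log2 ratio was 1.86 (1.73 to 1.999) with DMSO and 2.24 (2.10 to 2.39) with CH223191, or 3.63-fold and 4.74-fold. Smad3, a receptor-activated SMAD, had 100, 84, 248 and 201 reads. Its log2 ratio was 1.17 (0.83 to 1.53) with DMSO and 1.22 (0.85 to 1.61) with CH223191, and both intervals reach below 2-fold. Smad2, also receptor-activated, is no member and is named after its values were seen. It had 708, 654, 656 and 622 reads, with log2 ratios under 4T1-CM of -0.24 and -0.10. Per length, Smad2 was 11.1, 12.2, 4.13 and 4.83 times Smad3.

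Smad7, the inhibitory SMAD that recruits ubiquitin ligases to the receptors, had 198, 109, 153 and 170 reads. The libraries in 4T1-CM lay between those in normal medium. Its log2 ratio was -0.51 (-0.82 to -0.20) with DMSO and 0.61 (0.26 to 0.97) with CH223191. Smad7 was thus lower in 4T1-CM in one pair of libraries and higher in the other. Per length, Smad7 was above Smad3 in normal medium (2.75 and 1.52 against 1.13 and 0.953 CPM per kilobase). In 4T1-CM with DMSO it was below Smad3 (1.93 against 2.56), and with CH223191 the levels were 2.31 and 2.23.

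Tgfbi encodes a secreted matrix protein induced by TGF-β, from which it takes its name. It had 46, 34, 10571 and 8072 reads, or 2.89, 2.14, 604 and 497 CPM. As for Inhba, each library in 4T1-CM was far above each in normal medium. Tgfbi was 207-fold higher with DMSO, a log2 ratio of 7.69 (7.29 to 8.16), and 229-fold higher with CH223191, a log2 ratio of 7.84 (7.38 to 8.39). These rises ranked 8 and 8 among the 8323 genes. Per length, Tgfbi was the most abundant of the 10 genes in 4T1-CM, at 160 and 132 CPM per kilobase.

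Counted together, 4 of the 10 members (Inhba, Tgfbi, Skil and Smad3) were at least 2-fold higher in 4T1-CM with DMSO, and 0 were lower. Over all 13715 genes, 12.2% were that far higher in the same comparison and 6.11% that far lower. With CH223191, the same 4 members were higher and 0 lower, against 12.0% and 7.86% of all genes. For both comparisons at once the share of all genes was 8.18% higher and 3.38% lower. The median log2 ratio of the members was 0.29 with DMSO and 0.48 with CH223191, and that of all genes 0.01 and 0.02. Because these contrasts chose the members, nothing is read from the counts.

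**Figure D2:**
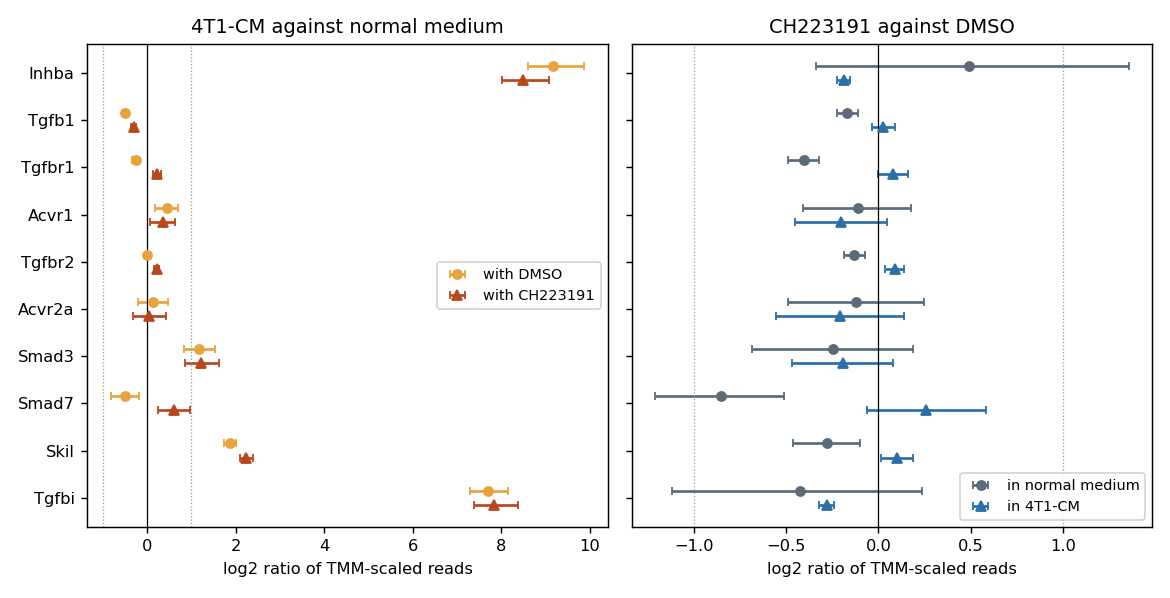
Log2 ratio of each gene under 4T1-CM (left) and under CH223191 (right), with bars for the 95% counting interval and dotted lines at 2-fold. Under 4T1-CM, Inhba, Tgfbi, Skil and Smad3 lie beyond 2-fold in both pairs of libraries, whereas under CH223191 no gene does and Smad7 in normal medium is the farthest below 0, at -0.85. The axes of the panels differ in range.

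CH223191 changed no member by 2-fold in either medium. In normal medium 0 of the 10 were higher and 0 lower at that size, where 4.84% and 3.31% of all genes were. In 4T1-CM the counts were again 0 and 0, where 2.75% and 2.66% of all genes were. Inhba had a log2 ratio of -0.19 (-0.22 to -0.15) under CH223191 in 4T1-CM, that is 0.878 times the level with DMSO. In normal medium its ratio of 0.49 (-0.34 to 1.36) rested on 31 and 22 reads and included 0. Tgfbi had -0.28 (-0.32 to -0.24) in 4T1-CM, or 0.823 times the level with DMSO. Inhba and Tgfbi thus remained far above normal medium in the presence of the antagonist. Without replicates, differences of this size cannot be set against the spread between cultures.

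In normal medium, 9 of the 10 members had a log2 ratio below 0 under CH223191, where 6644 of all 13715 genes did. The median was -0.21 for the members against 0.00 for all genes. Smad7 stood lowest at -0.85 (-1.21 to -0.51), followed by Tgfbi at -0.43 (-1.12 to 0.24) and Tgfbr1 at -0.40 (-0.49 to -0.32). Skil had -0.28 (-0.46 to -0.10), Tgfb1 -0.17 (-0.22 to -0.11) and Tgfbr2 -0.13 (-0.18 to -0.08). The members are long genes, from 3771 to 9694 bases, and over the 11943 genes that averaged 1 CPM or more the log2 ratio of this comparison went down with gene length (Spearman rho -0.25 across genes, which are not independent replicates). The 5608 genes of that length range had a median of -0.04. The part of length in the lower values was not tested. In 4T1-CM, where rho was 0.03, 5 members were above 0 and 5 below, with a median of -0.08. Over all genes, 6958 were above 0 and 6753 below in that comparison.

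When the log2 ratio under 4T1-CM with DMSO was subtracted from that with CH223191, the difference was largest for Smad7, at 1.11 (0.65 to 1.58). It was 0.48 (0.37 to 0.60) for Tgfbr1, 0.38 (0.18 to 0.58) for Skil, 0.22 (0.14 to 0.29) for Tgfbr2 and 0.20 (0.11 to 0.28) for Tgfb1. For Inhba it was -0.68 (-1.47 to 0.11), an interval that included 0, as did those of Acvr1, Acvr2a, Smad3 and Tgfbi. Over 11943 genes the median difference was 0.00, 95% lay between -1.13 and 0.92, and 20.4% differed by 0.5 or more in size. Of the members, Smad7 alone lay outside that range.

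**Figure D3:**
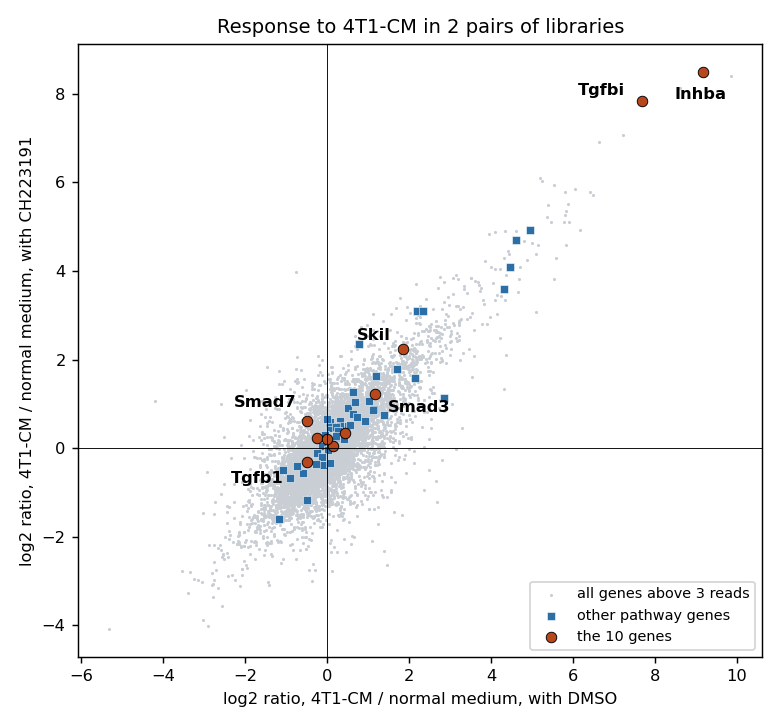
Log2 ratio under 4T1-CM with CH223191 (vertical) against that with DMSO (horizontal) for the 12805 genes with more than 3 reads in every library (grey), the other pathway genes among them (blue) and the 10 genes (red). Inhba and Tgfbi lie at the upper right end, at 9.17 and 7.69 with DMSO, and Smad7 lies in the upper left with opposite signs.

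The genes whose pattern over the 4 libraries was most like that of Inhba, by Euclidean distance between centred log2 CPM, were Hp (0.482), Acod1 (0.513) and Il1b (0.957). Hp encodes haptoglobin, Acod1 the enzyme that makes itaconate and Il1b interleukin-1β. Hp had 29, 37, 12581 and 10714 reads, Acod1 had 7, 12, 7661 and 4309, and Il1b had 2, 8, 3162 and 2252. Nearest to Tgfbi were Olr1 (0.768), Hp (0.820) and H2-M2 (1.04), nearest to Skil were Rnf149, Btg1 and Ece1, and nearest to Smad3 were Sphk1, Stab1 and Atp10d. With 4 libraries, this likeness chiefly reflects the size of the difference between the media.

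A further 73 genes of the pathway were read from a list of ligands, activators, traps, receptors, SMADs, cofactors and targets, of which 56 passed the minimum and 7 had 0 reads in every library. Of the 56, 16 were higher and 2 lower by 2-fold or more in 4T1-CM with DMSO, where 12.2% and 6.11% of all genes were. With CH223191, 16 were higher and 3 lower, where 12.0% and 7.86% were. The same shares stand beside the counts by role below. In both comparisons 13 were higher and 1 lower, where 8.18% and 3.38% of all genes were. Their median log2 ratio was 0.31 with DMSO and 0.52 with CH223191, against 0.01 and 0.02 for all genes. Under CH223191, none of them averaging 1 CPM or more passed 2-fold in both media. In normal medium 1 of the 56 was higher and 4 were lower, against 4.84% and 3.31% of all genes. In 4T1-CM 0 were higher and 1 lower, against 2.75% and 2.66%. Named after their values were seen, those in normal medium were Fst (higher) and Ltbp1, Ctgf, Cyr61 and Id1 (lower), with at most 37 reads in either library, and the 1 in 4T1-CM was Gdf11, with 11 reads and 1 read. Up to 3 of the 56 genes in a comparison had 3 reads or fewer in a library of it.

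Of the other ligands, Inhbb, which encodes the inhibin βB chain, had 1, 2, 10 and 13 reads, and Tgfb2 had 36, 37, 105 and 64. Inhba thus held nearly all reads of these activin β chains. Bmp2, a BMP ligand, had 46, 41, 166 and 145 reads, with log2 ratios of 1.71 and 1.78 under 4T1-CM with DMSO and with CH223191. Gdf3, a TGF-β family ligand that macrophages express, was the 1 pathway gene lower in both, with 193, 198, 94 and 66 reads and log2 ratios of -1.17 and -1.61.

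Of the 10 kept genes listed for latency and activation of ligand, 4 passed 2-fold upward in 4T1-CM with DMSO, 4 with CH223191, and 0 passed it downward in either. Those past it in both were Thbs1, Bmp1 and Ltbp2, while Itgb8 passed it with DMSO and Ltbp1 with CH223191 (these last named after their values were seen). Thbs1, whose product thrombospondin-1 activates latent TGF-β, had 615, 590, 16561 and 15619 reads and log2 ratios of 4.61 and 4.69. Bmp1, a protease that frees latent complexes from matrix, had 35, 19, 178 and 171 reads (log2 ratios of 2.20 and 3.11), and Ltbp2, of the latent TGF-β binding protein family, had 78, 62, 195 and 197 (1.18 and 1.63). Nrros, which anchors latent TGF-β on myeloid cells and is also named after its values were seen, was lower in 4T1-CM, with 3948, 4134, 2891 and 2882 reads and log2 ratios of -0.58 (-0.65 to -0.52) and -0.55 (-0.62 to -0.48). Of the ligand traps, Fst, encoding the activin antagonist follistatin, had 7, 15, 59 and 34 reads (log2 ratios of 2.86 and 1.12). Per length, Inhba was 174 and 245 times Fst in 4T1-CM and 2.26 and 1.48 times Fst in normal medium. Dcn, encoding decorin, had 35, 45, 172 and 139 reads (2.15 and 1.59), and Twsg1, a BMP modulator and the most abundant trap, had 802, 675, 1092 and 966 (0.31 and 0.49).

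No other receptor passed 2-fold in 4T1-CM with DMSO, and with CH223191 2 of 8 were higher and 1 lower. Those 3, named after their values were seen, were Acvr1b (log2 ratio 1.04), Bmpr1a (1.26) and the decoy receptor Bambi (-1.17). Acvrl1, the most abundant of them, had 1175, 1482, 2444 and 2318 reads and log2 ratios of 0.92 and 0.61. Of the other SMADs, 0 of 4 passed 2-fold in either comparison, and Smad4, the common partner, had 1100, 779, 1281 and 1093 reads. Among the inhibitors, Pmepa1, a target that sequesters receptor-activated SMADs, had 7, 5, 253 and 170 reads and log2 ratios of 4.95 and 4.93. Smad6, the inhibitory SMAD of the BMP branch, had 5, 7, 119 and 92 reads and log2 ratios of 4.31 and 3.60. This differs from its relative Smad7 above. Ski, related to Skil, had 2330, 1768, 3621 and 3377 reads (0.50 and 0.90). Of the SMAD cofactors, 0 of 4 passed 2-fold, and Ep300, a coactivator, was the most abundant, with 1500, 1636, 1965 and 1953 reads.

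Of 11 target genes, 5 passed 2-fold upward in 4T1-CM with DMSO and 4 with CH223191. Id1, a relative of Id3 named after its values were seen, was the 1 target past 2-fold downward, with DMSO only (log2 ratio -1.08). Ctgf and Cyr61, matricellular genes, had 18, 7, 102 and 65 reads (2.34 and 3.10) and 8, 2, 57 and 53 reads, where Cyr61 with CH223191 is given by reads alone. Id3, a BMP-responsive inhibitor of helix-loop-helix factors, had 60, 58, 135 and 124 reads (1.03 and 1.06). Id2, the most abundant target per length, had 2881, 3390, 6955 and 6376 reads (1.14 and 0.88). With DMSO, 5 of the 11 had a log2 ratio below 0, as did 6779 of all 13715 genes. Among those 5, named after their values were seen, the intervals of Cdkn1a, Cdkn2b and Junb included 0. Those of Id1 and Tsc22d1 excluded it.

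**Figure D4:**
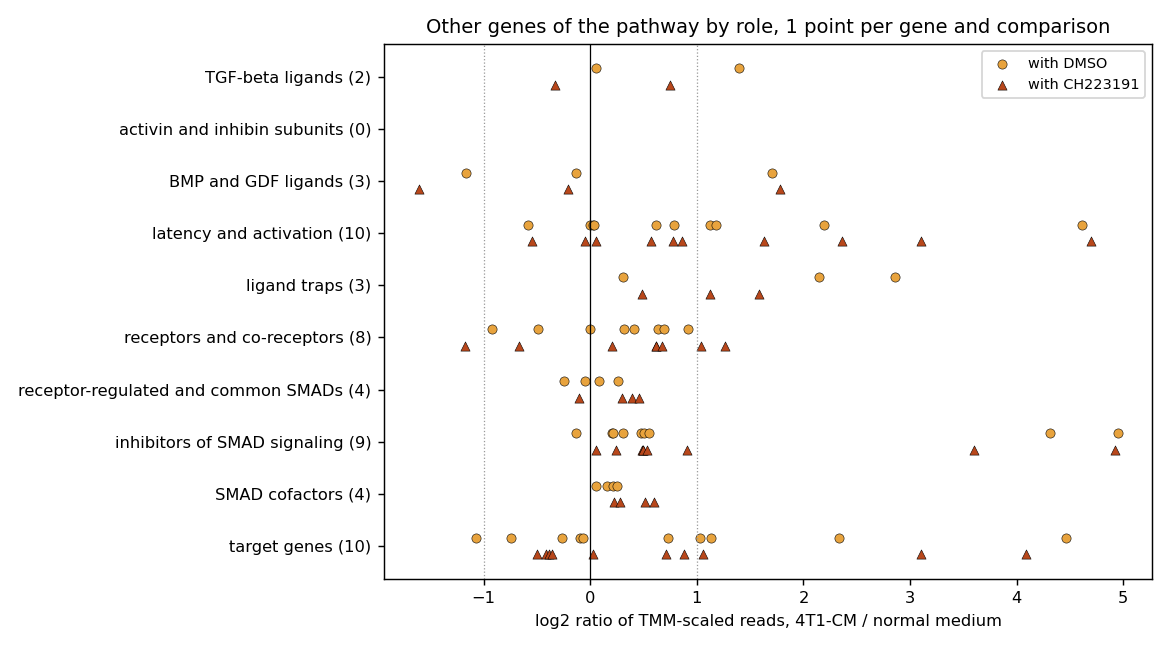
Log2 ratio under 4T1-CM of the other pathway genes by role, with 1 point for each gene and comparison, dotted lines at 2-fold and the number of genes with more than 3 reads in every library in brackets. The points beyond 3 include Thbs1, Bmp1, Smad6, Pmepa1 and Ctgf, and the SMADs and cofactors lie within 1 of 0.

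Fibroblasts express Inhba, Tgfbi, Thbs1, Dcn and Ctgf, and some of their markers also moved with the medium. Of 6 fibroblast markers, 4 were at least 2-fold higher in 4T1-CM with DMSO and 4 with CH223191, against 12.2% and 12.0% of all genes. Over 3 reads in every library were found for 4 of the 6. The summed level of the 6 was 60.8, 27.4, 140 and 120 CPM. The sum was carried by collagens, with Col1a2 the highest at 63.8 CPM. Col1a1 had 359, 118, 958 and 704 reads, Col1a2 had 429, 243, 1117 and 955, and Col3a1 had 88, 24, 284 and 202. Thy1 had 0, 1, 13 and 11 reads. Pdgfra, a surface receptor of fibroblasts, had 91, 49, 83 and 70 reads, and Lum had 3, 0, 0 and 0. Per length, Inhba was 24.8 and 23.7 times Col1a2 in 4T1-CM, and 0.0997 and 0.248 times in normal medium. Of 9 neutrophil markers, S100a9, Ly6g and Retnlg had 0 reads and the summed level was 67.6, 74.6, 242 and 181 CPM. Most of it was Csf3r and Mmp8, which macrophages can also express. Mmp8 had 35, 21, 2142 and 759 reads, S100a8 had 99, 190, 560 and 412, and Csf3r had 929, 959, 1521 and 1759. Cxcr2 had 12, 9, 2 and 0 reads, and Camp and Ltf had at most 6 in any library. Markers of epithelial tumour cells summed to at most 1.35 CPM, with Krt19 at 0. Those of platelets, which carry much TGF-β1, summed to at most 1.20 CPM, with Gp9 and Gp1bb at 0, those of T cells to at most 0.690 CPM, with Cd3d, Cd3e, Cd3g and Cd8a at 0, and those of mesothelial cells to at most 1.32 CPM. B-cell markers summed to 20.2, 34.3, 7.94 and 5.29 CPM, nearly all of it Ighm. The part of these cell types in the members' differences was not tested.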

How the data were processed

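The genome build and the strand setting of the counting are not given in the sources used here. The authors deposited raw read counts per gene, with gene lengths, for 4 libraries in 1 table. The submitters' processing notes name HISAT2 2.0.5 and DESeq2. Samples were grouped by their labels. A gene was kept if any library held 10 or more of its reads, and counts were scaled by TMM (edgeR 4.0.16, R 4.3.3). Log2 ratios used a prior count of 0.5, with exact Clopper-Pearson intervals at 95%. Intervals of response differences came from Poisson error. Levels between genes are CPM per kilobase of the deposited gene length. The members and lists were chosen with earlier results of these data known.

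An additive edgeR quasi-likelihood fit (medium and inhibitor, 1 residual degree of freedom, Benjamini-Hochberg adjustment over 13715 genes) called 4476 genes for the medium (2248 higher, 2228 lower) and 11 for the inhibitor (10 higher, 1 lower), and no p-value was taken for the members. In this fit the libraries with DMSO and with CH223191 stand in as replicates of a medium. Its counts therefore measure no spread between cultures. Named genes were all members, other pathway genes averaging 1 CPM or more and 2-fold changed the same way in both 4T1-CM or both CH223191 comparisons, and the most abundant of each role; 1 gene that the rule names is not reported here. Nearest genes had a mean of at least 10 CPM. The code for the ratios was also run on simulated counts that carried counting error only, so the run says nothing on spread between cultures. Alternatives were DESeq2 1.42.0 size factors and Wald test, total counts, a prior count of 5, other filters, protein-coding genes alone, a fold of 1.5 and, chosen after seeing the data, removal of the trend on gene length. Python 3.11.15, numpy 2.4.6, pandas 2.3.3, scipy 1.17.1 and matplotlib 3.10.9 were used.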

Additional observations from a re-analysis of the deposited data

Results flagged for a closer look

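Tgfbr1 and Smad7 moved in opposite directions under 4T1-CM in the 2 pairs of libraries, which share no library. Tgfbr1 had a log2 ratio of -0.26 with DMSO and 0.22 with CH223191, and Smad7 had -0.51 and 0.61. Tgfbr2 and Skil moved in opposite directions under CH223191 in the 2 media. Tgfbr2 had a log2 ratio of -0.13 in normal medium against 0.088 in 4T1-CM, and Skil had -0.28 and 0.10. Each interval excluded 0 for counting error, but the differences were not tested, since each condition had 1 library. With the trend on gene length removed, Tgfbr1 under 4T1-CM with CH223191 came to 0.12 and Tgfbr2 under CH223191 in normal medium to -0.06. For all 4 genes, the library in normal medium with CH223191 had the lowest level.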

How the results depend on the processing

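No paired analysis was possible because each condition had 1 library, so no library could be left out either. Of the 40 log2 ratios of the members, 40 stayed within their counting intervals with DESeq2 size factors, at least 10 reads in every library, no filter, a prior count of 5 or protein-coding genes alone. With total counts 38 did, the exceptions being Tgfb1 (-0.23) and Tgfbr2 (-0.19) under CH223191 in normal medium. With the length trend removed, an alternative chosen after seeing the data, 35 did, and the largest change was 0.27, where Skil under 4T1-CM with CH223191 came to 1.98. The other 4 were Tgfbr1 (from 0.22 to 0.12) and Tgfbr2 (from 0.21 to 0.03) under 4T1-CM with CH223191, and Tgfbr2 under 4T1-CM with DMSO (from -0.01 to -0.09) and under CH223191 in normal medium (from -0.13 to -0.06). The Tgfbr2 response difference came to 0.13. No called ratio changed sign. The Tgfbr2 ratio under 4T1-CM with DMSO, near 0, changed sign with the stricter filter. The median of all genes moved by at most 0.05 in size under any scaling. The additive fit called 2443 genes for the medium and 14 for the inhibitor with the DESeq2 Wald test.

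At 1.5-fold, 1 member (Smad7) was lower under CH223191 in normal medium, and 5 members in place of 4 were higher in 4T1-CM with CH223191, Smad7 being the fifth. The share of all genes at 1.5-fold was not computed, so nothing is read from these counts. The counts of other pathway genes moved more. At 1.5-fold they were 26 higher in 4T1-CM with CH223191 and 4 lower in 4T1-CM with DMSO, and under CH223191 2 higher in normal medium, with 1 higher and 6 lower in 4T1-CM. With at least 10 reads in every library they were 10 and 9 higher in 4T1-CM with DMSO and with CH223191, and under CH223191 0 higher and 1 lower in normal medium and 0 lower in 4T1-CM. The shares of all genes with that filter were, in the same order, 7.23%, 7.39%, 1.92%, 0.756% and 0.45%. With no filter they were 4 and 5 lower in 4T1-CM with DMSO and with CH223191, and under CH223191 3 higher and 8 lower in normal medium and 1 higher and 5 lower in 4T1-CM. The shares of all genes without a filter were, in the same order, 11.6%, 13.7%, 12.8%, 10.3%, 11.7% and 12.3%. A prior count of 5 gave 1 lower in 4T1-CM with DMSO, and 0 higher and 2 lower under CH223191 in normal medium, where 4.72%, 2.65% and 1.51% of all genes were. Total counts gave 0 higher under CH223191 in normal medium, against 4.53% of all genes. Removal of the length trend gave 1 lower in 4T1-CM with DMSO, and the share of all genes was not computed for it. The depth sets a floor of 3 reads, or 0.171 to 0.189 CPM.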
